A study of Mus musculus with 8 samples.

Results

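The 7 genes described here write, erase or read DNA methylation. They were taken by symbol from the 32285 genes in the deposited feature lists: the methyltransferases Dnmt1 and Dnmt3a, the dioxygenases Tet1, Tet2 and Tet3, and the methyl-CpG-binding proteins Mbd1 and Mbd2. All 7 were found in every library. The study profiled single nuclei of the cerebral cortex of C57BL/6J mice at postnatal day 25, after the medial cortex had been cut away and the tissue flash-frozen. Wild-type (WT) mice were set against Chd8+/- mice (Chd8het below), heterozygous for the chromatin remodeller gene Chd8. The allele is not described in the sources used here. Each genotype had 2 males and 2 females, each animal gave 1 library, and the study matched 4 pairs by sex and litter. Which libraries form a pair is not stated, so pairs below are the libraries that share sex and replicate number. In every combination of sex and genotype, replicate 1 was single-indexed and replicate 2 dual-indexed, so litter and index type cannot be told apart in these pairs. The droplet kit (10x Genomics 3', v3) counts transcripts by unique molecular identifiers (UMIs) at the 3' end.

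Methylation of cytosine is laid down by methyltransferases, is oxidised by TET enzymes as a first step of its removal, and is bound by proteins with a methyl-CpG-binding domain that recruit repressor complexes. Dnmt1 copies CG methylation to the new strand after replication, and Dnmt3a adds methyl groups to unmethylated sites. In the rodent cortex, neurons build up methylation outside CG sites through Dnmt3a during the first weeks after birth, and 5-hydroxymethylcytosine, the product of TET enzymes, is abundant in neurons. Postnatal day 25 lies inside that window.

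The genes span 15.1 kb (Mbd1) to 108.4 kb (Dnmt3a), and nuclear RNA counts include unspliced transcripts where introns were counted, which is not given in the sources used here. In GENCODE M21 on GRCm38, Dnmt1 (ENSMUSG00000004099) spans 9:20907209-20959888 on the minus strand and Dnmt3a (ENSMUSG00000020661) spans 12:3806007-3914443 on the plus strand. Tet1 (ENSMUSG00000047146) lies at 10:62804570-62908996, Tet2 (ENSMUSG00000040943) at 3:133463679-133545139 and Tet3 (ENSMUSG00000034832) at 6:83362373-83459084, all on the minus strand. All are protein coding, as are both readers. Opposite-strand genes in the files overlap Dnmt3a (Dnmt3aos), Tet2 (Gm42567) and Tet3 (B230319C09Rik). Because the use of strand in counting is not stated, their reads could not be told apart from those of the member.

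Start-site sequences of 5 members were matched by symbol in a RefSeq table (GRCm38.p6). Dnmt3a and Tet1, whose levels differed most between cell types, are shown over 250 bases before to 50 after the start. Capitals mark each CG, the main though not the only site of methylation. Of the 3 annotated Dnmt3a starts, an upstream one (window 2) and the internal one (window 3) are shown, since the deposited counts sum over all transcripts of a gene. Dnmt3a window 2 is chr12:3806910-3807209, Dnmt3a window 3 is chr12:3891494-3891793, both plus strand, and the Tet1 window is chr10:62887275-62887574, minus strand.
Dnmt3a window 2: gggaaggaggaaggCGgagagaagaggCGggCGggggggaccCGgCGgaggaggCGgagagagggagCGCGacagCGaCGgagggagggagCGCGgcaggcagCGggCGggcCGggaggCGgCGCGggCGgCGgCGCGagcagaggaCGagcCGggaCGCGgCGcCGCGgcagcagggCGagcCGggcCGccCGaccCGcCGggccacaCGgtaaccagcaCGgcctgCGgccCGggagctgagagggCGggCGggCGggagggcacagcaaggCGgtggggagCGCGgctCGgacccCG
Dnmt3a window 3: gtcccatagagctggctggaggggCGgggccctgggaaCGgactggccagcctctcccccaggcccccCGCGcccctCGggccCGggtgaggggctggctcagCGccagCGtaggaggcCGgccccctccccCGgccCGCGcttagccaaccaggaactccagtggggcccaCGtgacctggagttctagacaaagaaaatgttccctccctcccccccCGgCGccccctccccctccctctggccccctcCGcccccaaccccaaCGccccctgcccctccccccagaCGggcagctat
Tet1 window: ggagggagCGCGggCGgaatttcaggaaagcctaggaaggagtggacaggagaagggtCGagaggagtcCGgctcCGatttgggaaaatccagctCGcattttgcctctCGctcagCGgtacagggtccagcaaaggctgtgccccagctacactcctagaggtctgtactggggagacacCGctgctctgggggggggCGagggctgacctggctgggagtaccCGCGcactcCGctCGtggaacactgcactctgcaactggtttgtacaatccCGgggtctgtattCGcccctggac
Window 1 of Dnmt3a, which overlaps window 2 and is not shown, holds 46 CG dinucleotides. Window 2 holds 47 CG dinucleotides (CG reads the same on both strands), a count that 1.44% of the 32851 windows of this length reach. The internal Dnmt3a window holds 18 and the Tet1 window 17, counts that 29.7% and 31.4% of the windows reach, where the median window holds 7. The windows of Tet1, Tet2 and Tet3, every Dnmt3a window and the Dnmt1 windows with 33 and 12 CG lie inside the gene spans given above. They lie downstream of the GENCODE 5' ends. The starts of Tet2 and Tet3 hold 57 and 22, and the 3 annotated starts of Dnmt1 hold 33, 12 and 2.

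Libraries held 69503598 to 98132783 UMIs, and 82168 nuclei with at least 500 genes and at most 5% mitochondrial UMIs were kept. Of these, 53257 (64.8%) were assigned to a cell type by a panel of 118 marker genes that holds no member, and 17 types with at least 30 nuclei in every library were compared. The names below stand for nuclei resembling that type by its markers. At least 3 markers of each type were among the 10 panel genes that led its gate. The same genes set the gates, so that lead does not check the identities. Cortical excitatory types are given by layer and projection (IT, intratelencephalic; ET, extratelencephalic; NP, near-projecting; CT, corticothalamic). In the L6b gate, L6 CT markers together averaged 2364 CPM (UMIs scaled to a common library total) and L6b markers 150. L5/6 NP markers exceeded the own list in L5 ET (536 against 424). L4/5 IT markers did so in Deep IT (1600 against 439). In L2/3 IT, L4/5 IT, L5/6 NP and L6 CT the own list was highest among the excitatory type lists. Nuclei of mixed or background profile, 20655 in number, were set aside. Over all kept nuclei, Chd8 itself measured 76.2 to 82.7 CPM in the WT libraries and 76.2 to 87.9 in those labelled Chd8het. Its log2 difference was -0.004 (SE 0.072). It was lower in Chd8het in 11 of 17 types and passed the test in none of them. A 3' count of a gene whose allele is not described does not check the genotype labels, which are taken as given. Library Chd8het male 2 had the lowest share of assigned nuclei, 52.3% against 62.2% to 73.5% in the others. Of all barcode sequences, 98.8% occurred in 1 library and 1138 in 2.

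Levels across cell types are given first in CPM, scaled between types and libraries by the trimmed mean of M-values (TMM), as mean ± SD over the 8 libraries. Types were compared with edgeR's quasi-likelihood test on summed counts with the library as a block. The block removes a shift shared by all types of a library. Past that shift, the sums of a library counted as independent, though each library is 1 animal. Libraries did not shift alike in all types: Tet3 measured 120 ± 40.7 CPM in L2/3 IT and 74.0 ± 10.9 in Pvalb. The SE and p of comparisons between types or groups of types thus do not give the spread between animals. A difference was called at a Benjamini-Hochberg adjusted p under 0.05 and at least 2-fold. Of the 119 comparisons of 1 type with the mean of the other types, 70 passed the adjusted p and 7 were called, 2 of them higher and 5 lower. Over all genes, 19.9% of such comparisons were called. In CPM, the members in 1 type thus differed from the mean of the other types mostly by less than 2-fold. Single types lay further apart in places, as Tet1 at 82.1 in oligodendrocytes and 22.4 in L2/3 IT. In the order of each member's levels, libraries of neighbouring types failed to overlap at 2 of 112 steps. Neighbours in such an order are the closest pairs, and these ranges ignore that types share libraries. For Tet1, L4/5 IT lay above L2/3 IT in all 8 libraries though their ranges overlapped.

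The writer Dnmt3a had its highest mean levels in deep-layer excitatory neurons and its lowest in OPC (oligodendrocyte precursor cells), Lamp5 interneurons and vascular cells. It measured 239 ± 48.2 CPM in L6 CT neurons (lowest library 205, highest 354), followed by L5/6 NP at 221 ± 43.1, L6b at 218 ± 44.0, Deep IT at 217 ± 37.2 and L5 ET at 214 ± 40.0. Levels in L2/3 IT (208 ± 42.6), oligodendrocytes (204 ± 20.1), L4/5 IT (204 ± 29.2), microglia (195 ± 31.7) and fibroblasts (178 ± 28.8) came next. None of these 10 neighbours stood apart from the next beyond the spread of libraries. Chd8het male 2 was the highest library in L6 CT (354) and L5/6 NP (317). By median, L6 CT (227) was followed by L5/6 NP (211), L5 ET (209), Deep IT (206), L6b (205) and oligodendrocytes (203). No excitatory type was called higher on this scale. Interneurons were lower, at 169 ± 23.3 in Sst, 168 ± 19.1 in Pvalb and 152 ± 19.0 in Vip, with astrocytes at 156 ± 17.4. A step without overlap then led from Vip (130 to 184) to Lamp5 interneurons at 102 ± 15.3 (82.6 to 122). OPC stood at 82.6 ± 14.6 and vascular cells at 74.9 ± 27.1, the lowest levels of the 17 types. Dnmt3a was called lower in OPC (log2 difference from the other types -1.10, SE 0.07, edgeR adjusted p = 1.61e-32) and in vascular cells (-1.20, SE 0.11, adjusted p = 4.28e-18), where 7.59% and 18.4% of 15248 genes were called lower. In vascular cells the difference was -0.93 with DESeq2 size factors and in OPC -0.99 with a stricter gate, both under the 2-fold bound.

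Within the oligodendrocyte lineage Dnmt3a had the largest difference of the 7 genes. OPC carried 69.4 to 109 CPM and oligodendrocytes 178 to 233, so no library of either type overlapped the other. The log2 difference of OPC minus oligodendrocytes was -1.31 (SE 0.08, edgeR adjusted p = 3.56e-32), and it stayed called in all 13 other settings on this scale, between -1.36 and -1.22. Dnmt3a was the only member called in this comparison, where 28.1% of 15248 genes were called (11.4% called lower in OPC). Tet3 (log2 -0.94, SE 0.12), Tet1 (-0.84, SE 0.11) and Mbd2 (-0.64, SE 0.11) were lower in OPC at adjusted p of 7.40e-12, 9.04e-12 and 9.26e-08 but under 2-fold. Dnmt1 (log2 0.83, SE 0.19, adjusted p = 8.01e-05) and Tet2 (0.55, SE 0.10, adjusted p = 2.95e-07) were higher in OPC, also under 2-fold, and Mbd1 had a log2 difference of 0.008 (SE 0.14). With the WT libraries alone, Dnmt1 (1.05) and Tet1 (-1.12) also passed 2-fold, as did Dnmt1 (1.05) with a stricter gate.

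Dnmt1, which maintains methylation through cell division, was sparsely counted. OPC and L6 CT neurons had the highest levels, 19.7 ± 6.91 and 19.6 ± 3.79 CPM, and astrocytes the lowest of the deeply counted types, 6.42 ± 2.05 (3.12 to 9.48). In between, Lamp5 (18.1 ± 7.22), L5/6 NP (17.9 ± 5.07), L6b (17.8 ± 5.70), Sst (17.1 ± 4.23), Pvalb (15.6 ± 2.90), L5 ET (15.1 ± 4.09), L4/5 IT (14.7 ± 1.70), Vip (14.5 ± 4.93), Deep IT (13.6 ± 3.13) and L2/3 IT (13.4 ± 1.76) overlapped each other. Oligodendrocytes (11.1 ± 1.62), fibroblasts (9.06 ± 3.95) and microglia (8.89 ± 4.10) lay below the neurons. The difference of astrocytes from the other types was -1.07 (SE 0.16, edgeR adjusted p = 2.35e-09), where 12% of genes were called lower. It fell just under 2-fold, to -0.96 and -0.98 without WT male 1 or WT male 2 and to -0.95 with a stricter gate. Vascular cells gave 9 Dnmt1 UMIs over 8 libraries and 0 in 3 of them. A count of 0 there allows up to 11.9 to 33.8 CPM (3 UMIs per library, counting error only), so the call in vascular cells (-1.02, SE 0.43, adjusted p = 0.036) rested on few molecules and was lost in 9 of 13 other settings, with DESeq2 size factors at -0.76.

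Among the erasers, Tet1, which holds a CXXC domain that binds unmethylated CG, was the member most biased to macroglia as a share of UMIs. It measured 82.1 ± 15.4 CPM in oligodendrocytes (60.5 to 107) and 72.2 ± 7.87 in astrocytes (60.8 to 87.5). A step without overlap separated astrocytes from OPC at 45.5 ± 3.66 (40.4 to 50.8). Sst interneurons (44.98 ± 5.52), fibroblasts (43.6 ± 15.1), Deep IT (39.3 ± 4.78), L5/6 NP (38.8 ± 2.74), L6 CT (37.3 ± 4.43), Lamp5 (37.3 ± 7.40), L6b (37.1 ± 4.58) and Vip (36.0 ± 8.95) followed with overlapping libraries. Lower levels were found in L5 ET (31.5 ± 6.16), Pvalb (31.1 ± 3.07), L4/5 IT (29.1 ± 2.80), L2/3 IT (22.4 ± 4.24) and microglia (19.2 ± 6.86). Tet1 was called higher in oligodendrocytes (log2 1.26, SE 0.07, edgeR adjusted p = 1.00e-36) and in astrocytes (1.06, SE 0.07, adjusted p = 2.08e-29), where 13.8% and 14.8% of genes were called higher. Both calls held in all 13 other settings on this scale. Neither was called per nucleus, a scale described with the cell classes below, at 0.44 (SE 0.07) in oligodendrocytes and 0.02 (SE 0.07) in astrocytes. In vascular cells (13.2 ± 13.3, 20 UMIs in all and 0 in 3 libraries) Tet1 was called lower as a share of UMIs (-1.33, SE 0.26, edgeR adjusted p = 4.07e-06), with -0.87 in the WT libraries alone.

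Tet2, the family member without a CXXC domain of its own, was highest in Pvalb interneurons at 121 ± 17.7 CPM (91.5 to 143). Sst (110 ± 13.5), astrocytes (110 ± 21.2), microglia (102 ± 13.4) and Lamp5 (98.0 ± 9.02) overlapped it in the order given. A middle group held fibroblasts (78.7 ± 8.15), L4/5 IT (77.3 ± 11.4), L6 CT (77.1 ± 14.8), L5 ET (76.7 ± 12.8), Vip (75.6 ± 17.5), OPC (73.3 ± 13.2) and L5/6 NP (73.1 ± 7.91). Deep IT (66.6 ± 13.3), L2/3 IT (63.0 ± 12.4), L6b (62.3 ± 10.3), oligodendrocytes (50.1 ± 4.31) and vascular cells (44.4 ± 11.8) were lowest. The difference from the other types was 0.69 (SE 0.05, edgeR adjusted p = 7.40e-25) in Pvalb and -0.66 (SE 0.07, adjusted p = 2.22e-16) in oligodendrocytes, so neither reached 2-fold as a share of UMIs. Both were called per nucleus, at 1.21 (SE 0.06) and -1.48 (SE 0.08), where 36.9% of such comparisons of all genes were. On that scale astrocytes turned from 0.54 to -0.50 (SE 0.07) and microglia from 0.45 to -1.17 (SE 0.08). Deep IT, L2/3 IT and L6b turned from lower to higher. As a share of UMIs, oligodendrocytes were thus highest for Tet1 and next to lowest for Tet2.

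Tet3, which also oxidises 5-methylcytosine, was higher in excitatory neurons than in interneurons. Its levels were 166 ± 27.8 CPM in microglia, 157 ± 45.7 in L6 CT, 129 ± 37.2 in Deep IT and 126 ± 26.2 in L5 ET. Oligodendrocytes (120 ± 14.003), L2/3 IT (120 ± 40.7), L4/5 IT (111 ± 27.4) and L6b (108 ± 27.2) came next, then fibroblasts (85.6 ± 16.5) and L5/6 NP (84.1 ± 19.1), the excitatory type with the lowest level. All interneurons lay lower, at 74.0 ± 10.9 in Pvalb, 69.5 ± 11.2 in Sst, 63.5 ± 12.3 in Lamp5 and 63.4 ± 12.6 in Vip, with astrocytes (71.9 ± 9.83), OPC (63.2 ± 7.90) and vascular cells (60.6 ± 32.3) among them. Spread between libraries was wide in excitatory neurons, from 69.7 to 186 in L2/3 IT. The difference of microglia from the other types was 0.91 (SE 0.09, edgeR adjusted p = 8.11e-18) and that of L6 CT 0.77 (SE 0.06, adjusted p = 1.93e-22), both under 2-fold. Per nucleus, Tet3 in microglia turned to -0.70 (SE 0.09, edgeR adjusted p = 1.58e-12). L6 CT stood at 1.20 (SE 0.06) on that scale and was called higher, as were Deep IT, L5 ET and L6b. Astrocytes, OPC and vascular cells were called lower there, where 36.9% of such comparisons of all genes were called.

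The readers varied least. Mbd1 (ENSMUSG00000024561) lies at 18:74267605-74282732 and Mbd2 (ENSMUSG00000024513) at 18:70568189-70626131, both on the plus strand of GRCm38. Mbd1, which binds methylated CG and has CXXC domains, ran from 30.7 ± 5.95 CPM in astrocytes, 29.9 ± 12.1 in fibroblasts and 28.4 ± 2.65 in L2/3 IT to 20.3 ± 5.48 in Lamp5, 20.2 ± 3.44 in Sst and 16.8 ± 6.38 in vascular cells. The 11 other types lay between 24.1 ± 5.22 (Vip) and 28.3 ± 4.91 (L6b). As a share of UMIs no type was called, and 4 of 17 passed the adjusted p. Mbd1 in astrocytes turned from 0.29 (SE 0.09) to -0.75 (SE 0.09) per nucleus. Mbd2, which recruits the NuRD repressor complex to methylated CG, was highest in oligodendrocytes (71.0 ± 11.96), fibroblasts (69.6 ± 19.5) and astrocytes (66.4 ± 5.07) and lowest in Pvalb interneurons (35.9 ± 3.35). L4/5 IT (57.5 ± 3.79) led the neurons, ahead of L6 CT (50.9 ± 3.51), L6b (49.7 ± 8.65), Deep IT (49.6 ± 3.31), L5/6 NP (49.1 ± 4.10), L5 ET (45.7 ± 3.80), Sst (45.02 ± 9.93), L2/3 IT (42.7 ± 3.45), Lamp5 (42.4 ± 8.03) and Vip (41.5 ± 14.1). Vascular cells (58.8 ± 27.8), OPC (45.8 ± 10.2) and microglia (42.2 ± 11.4) were spread through that order. The Mbd2 difference from the other types was 0.54 (SE 0.07, edgeR adjusted p = 4.84e-12) in oligodendrocytes, turning to -0.28 (SE 0.07, adjusted p = 0.000168) per nucleus, and -0.50 (SE 0.07, adjusted p = 6.91e-10) in Pvalb.

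**Figure D1:**
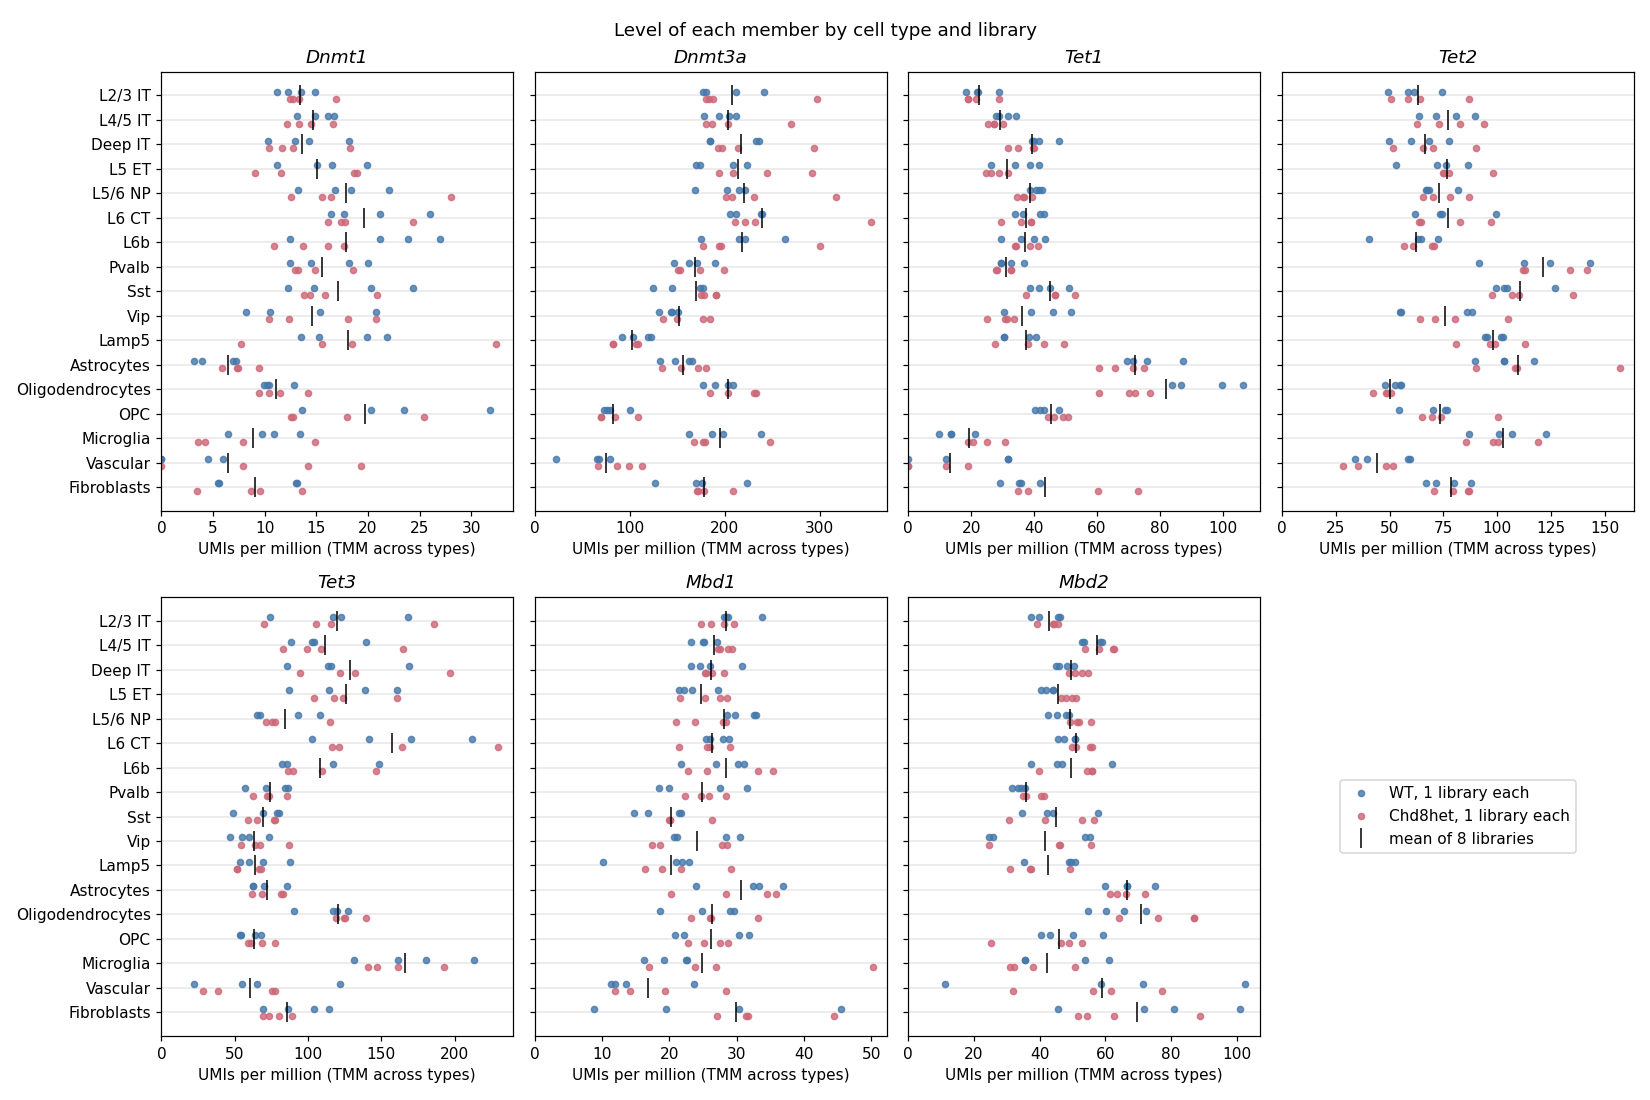
CPM (x axis, linear, TMM across types) of each member in 17 marker-gated cell types (y axis); each point is 1 library, blue for WT and red for Chd8het, and the black tick is the mean of 8 libraries. Tet1 stands highest in oligodendrocytes (82.1) and astrocytes (72.2), Dnmt3a lowest in OPC (82.6) and vascular cells (74.9), and the points of the genotypes lie among each other in most types.

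RNA of excitatory marker genes was counted in the other gates. Whether it was carried over or made by the gated nuclei themselves was not tested. The summed level of 5 excitatory markers (Slc17a7, Neurod2, Neurod6, Sv2b and Arpp21) in the non-neuronal gates was 12.2% (oligodendrocytes) to 29.7% (OPC) of its mean over the excitatory types, and 6.54% to 25.2% in interneurons. Dnmt3a in OPC measured 38.0% of its mean over the excitatory types, and Dnmt1 in astrocytes 40.1%. Tet1 in oligodendrocytes and astrocytes measured 244% and 215% of that mean. Member levels were scaled by TMM and marker sums by the library total alone, so these shares are not on the same scale. The part of any carried-over RNA in the lower levels was not tested.

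Averaged over neuronal and non-neuronal types, Dnmt1 and Dnmt3a were higher in neurons both as a share of RNA and as molecules per nucleus. Mbd2 turned from lower to higher between these scales. Not every type followed the averages. As a share, oligodendrocytes (204 CPM), microglia (195) and fibroblasts (178) held more Dnmt3a than any interneuron type (102 to 169). On the same scale OPC had the highest Dnmt1 level of the 17 types (19.7 CPM), beside 19.6 in L6 CT. These exceptions did not hold per nucleus. An OPC nucleus held 0.065 UMIs of Dnmt1 and an L6 CT nucleus 0.156. The Dnmt3a difference from the other types turned from 0.30 to -0.52 (SE 0.06) in oligodendrocytes and from 0.24 to -1.38 (SE 0.07) in microglia. Neuronal nuclei held a median of 6310 to 12678 UMIs by type and non-neuronal nuclei 1484 to 3394. As a share of UMIs, 0 of 7 members were called, where 30.7% of 15248 genes were. Dnmt1 (log2 neurons minus non-neuronal types 0.71, SE 0.10, edgeR adjusted p = 2.95e-10) and Dnmt3a (0.43, SE 0.03, adjusted p = 6.45e-25) were higher in neurons, and Mbd2 (-0.33, SE 0.05, adjusted p = 8.01e-10) was lower, all under 2-fold. Tet2 (0.13, SE 0.04, adjusted p = 0.0028) was higher by less. It did not pass with DESeq2 size factors (0.03, edgeR adjusted p = 0.57), with at least 1000 genes and at most 1% mitochondrial UMIs (0.05, adjusted p = 0.40), in the WT libraries alone (0.11, adjusted p = 0.080) or without Chd8het female 1 (0.09, adjusted p = 0.065). Tet1 (-0.18, SE 0.07, edgeR adjusted p = 0.019) was lower, at 0.10 with a stricter gate. It did not pass in the WT libraries alone (-0.09, edgeR adjusted p = 0.41) or without WT female 1, WT female 2, Chd8het male 1 or Chd8het male 2 (-0.16 to -0.12, edgeR adjusted p from 0.076 to 0.17). Tet3 (0.08, SE 0.05, -0.02 with DESeq2 size factors) and Mbd1 (-0.001, SE 0.070) did not pass. Per nucleus, a scaling chosen after seeing the data, all 7 were called higher in neurons, from 1.20 for Mbd2 to 2.24 for Dnmt1, where 71% of all genes were and the median gene was higher by 1.504. Relative to that median, Dnmt1, Dnmt3a (1.96), Tet2 (1.66), Tet3 (1.62) and Mbd1 (1.53) lay above and Tet1 (1.36) and Mbd2 below. An L5 ET nucleus held on average 2.59 ± 0.605 UMIs of Dnmt3a, an oligodendrocyte nucleus 0.715 ± 0.108 and an OPC nucleus 0.277 ± 0.0566. For Tet1 an L6b nucleus held 0.421 ± 0.0954 UMIs, more than an oligodendrocyte nucleus at 0.286 ± 0.0494, so its order between types was not that of its share. Per nucleus Tet1 in astrocytes differed from the other types by 0.02 (SE 0.07) and in oligodendrocytes by 0.44 (SE 0.07), neither called. Of the 119 comparisons of 1 type with the others, 37 were called per nucleus, where 36.9% of those of all genes were. In 18 of the 119 the difference passed the adjusted p on both scales with opposite signs. In OPC against oligodendrocytes, Dnmt3a (-1.38, SE 0.09) and Tet3 (-1.002, SE 0.12) were called lower per nucleus, where 12% of genes were.

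Excitatory and inhibitory neurons, which are closer in depth, differed under 2-fold in every member as a share of UMIs. None of the 7 was called, where 14.9% of 15248 genes were. Tet3 was higher in excitatory types (log2 0.78, SE 0.05, edgeR adjusted p = 2.35e-28), as were Dnmt3a (0.57, SE 0.03, adjusted p = 7.91e-34), Mbd1 (0.27, SE 0.06, adjusted p = 6.30e-05) and Mbd2 (0.26, SE 0.05, adjusted p = 1.23e-06). Tet2 (-0.51, SE 0.04, adjusted p = 3.67e-25) and Tet1 (-0.17, SE 0.05, adjusted p = 0.0037) were lower, Tet1 without passing in the WT libraries alone (-0.12, adjusted p = 0.16), and Dnmt1 had a difference of -0.04 (SE 0.08). Per nucleus, Tet3 passed 2-fold (1.10, SE 0.05), as 13.7% of all genes did in that direction, Tet2 stayed lower (-0.19), and Tet1 turned to 0.15, where the median gene was higher by 0.34 in excitatory neurons. Tet2 and Tet3 thus lay on opposite sides in this comparison on both scales.

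**Figure D2:**
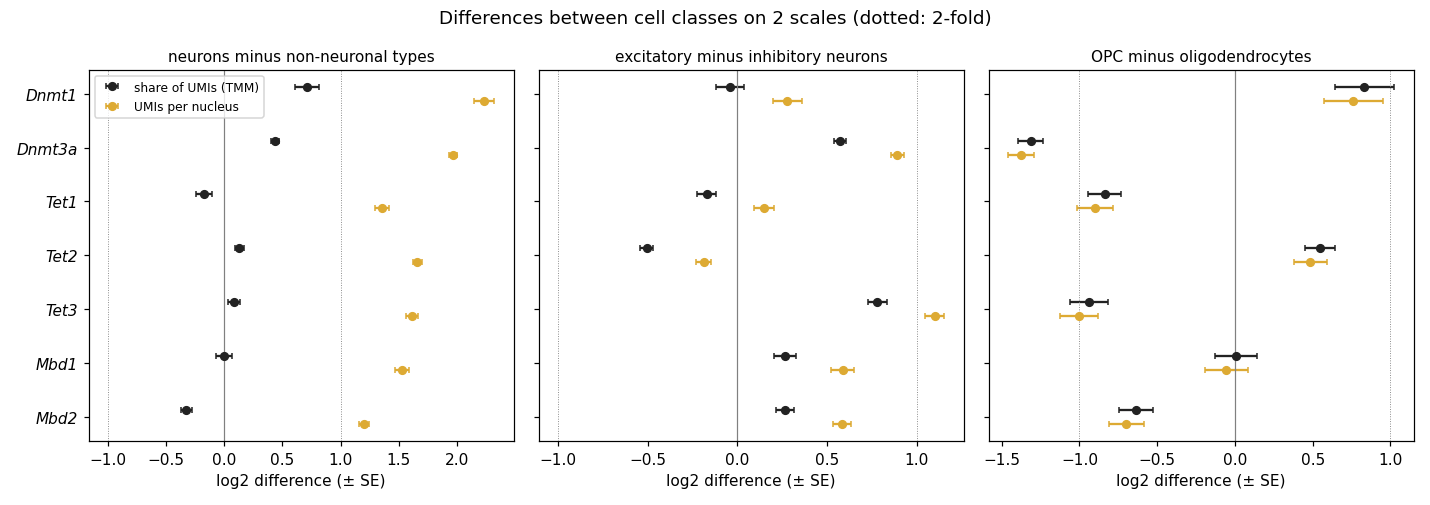
The log2 difference (x axis, ± SE) of each member (y axis) in 3 comparisons of cell classes, as a share of UMIs (black) and per nucleus (yellow); dotted lines mark 2-fold. In the first panel every yellow point lies at or right of 1.20 while the black points lie between -0.33 and 0.71; in the panel of OPC minus oligodendrocytes the scales nearly coincide.

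Of 31 other genes of the methylation pathway (further writers, readers, base excision repair and cofactor genes), 25 passed the count filter of this fit. In neurons against non-neuronal types 1 was called, Cxxc4 (log2 1.08, SE 0.07, edgeR adjusted p = 2.35e-29), a CXXC protein that restrains TET2. In excitatory against inhibitory neurons 1 was called, Gadd45g (-1.06, SE 0.20, adjusted p = 9.75e-07), a stress-response gene linked to demethylation. OPC against oligodendrocytes gave 4 calls, 2 in each direction. As a share of UMIs these were 4%, 4% and 16% of the 25 genes, beside 30.7%, 14.9% and 28.1% of all genes called. Per nucleus, 21 of the 25 (84%) were called higher in neurons, where 71% of all genes were, and the 4 genes called in OPC against oligodendrocytes were the same. Gadd45g was not called on that scale (-0.75, SE 0.19), where Mbd4, a base excision repair glycosylase, was the 1 pathway gene called between excitatory and inhibitory neurons (1.13, SE 0.09, edgeR adjusted p = 1.62e-25, beside 13.7% of all genes called higher). Cxxc4 (1.398, SE 0.16, adjusted p = 1.61e-14) was higher in OPC, at 53.7 ± 9.33 against 20.4 ± 10.3 CPM. Mat2a, which makes the methyl donor S-adenosylmethionine, was lower (-1.38, SE 0.10, adjusted p = 2.86e-26), at 121 ± 22.0 against 314 ± 105. Cxxc5 (-1.20, SE 0.16, adjusted p = 3.73e-11) was lower too, and the fourth call was Hells (1.29, SE 0.24, adjusted p = 1.36e-06), a chromatin remodeller needed for methylation, which the naming rule leaves out and which was added after its values were seen. The median log2 differences of the 25 genes in these 3 comparisons were -0.04, -0.04 and 0.02, against -0.01, 0.03 and 0.02 over all genes.

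The profiles of the members over the 17 types were described by Pearson's r of mean log2 levels, over types that share libraries. Dnmt3a and Tet3 were the most alike pair (r = 0.78), and Dnmt1 and Mbd2 the least (r = -0.34). Among 11143 genes with at least 20 CPM in some type, the 2 closest profiles were Kif9 (r = 0.90) and Gak (0.90) for Dnmt3a and Uba6 (0.95) and Nup205 (0.94) for Dnmt1. For Tet1 they were Ibtk (0.94) and Brms1l (0.93), for Tet2 Larp1 (0.92) and Slc18b1 (0.86), and for Tet3 Ube2l3 (0.92) and Samd8 (0.90). For Mbd1 they were 2610301B20Rik (0.92) and Rad52 (0.89), and for Mbd2 Syap1 (0.87) and Tef (0.86).

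The libraries labelled Chd8het and WT were then compared within each type, with edgeR's quasi-likelihood test, sex as a covariate and levels scaled by TMM among the 8 libraries of that type. No member passed an adjusted p under 0.05 in any of 113 tests over types, where 2 of 183379 tests of all genes (0.00109%) did, or over all kept nuclei, where 0 of 21811 genes (0%) did. By DESeq2's Wald test, 0 members and 7 tests of all genes passed. At an unadjusted p under 0.05, 3 of 113 member tests (2.65%) passed, close to the 2.47% of all genes. That count ran from 1 (without WT female 2) to 5 (4.42%, without WT female 1, against 2.67% of all genes) as each library was left out. All 7 members were tested in each of 14 types, 6 in microglia and fibroblasts and 3 in vascular cells, where the others failed the count filter. In 80 of the 113 tests the 95% interval of the change lay within 1.5-fold in both directions.

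Over all kept nuclei the Chd8het and WT libraries overlapped for every member, where 1.42% of all genes did not overlap. Dnmt3a measured 156 and 193 CPM in WT males 1 and 2 and 164 and 180 in WT females 1 and 2, against 167, 242, 177 and 164 in the Chd8het libraries. This order of libraries is kept below. The log2 change was 0.11 (SE 0.13, 95% interval -0.19 to 0.41). Chd8het male 2 was the highest library by far, WT male 2 the second, and without Chd8het male 2 the change was -0.03. Tet1 (log2 change -0.11, SE 0.09, lower in 3 of 4 pairs) and Mbd2 (0.06, SE 0.08, higher in 4 of 4 pairs) had smaller values without 1 library, -0.06 for Tet1 without WT male 2 and 0.01 for Mbd2 without Chd8het female 1, of the same sign. The changes of Dnmt1 (-0.03, SE 0.13), Tet2 (0.06, SE 0.11), Tet3 (0.03, SE 0.18) and Mbd1 (-0.0006, SE 0.075) changed sign with at least 1 library left out. The widest interval, that of Tet3, ran from 0.76-fold to 1.36-fold.

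**Figure D3:**
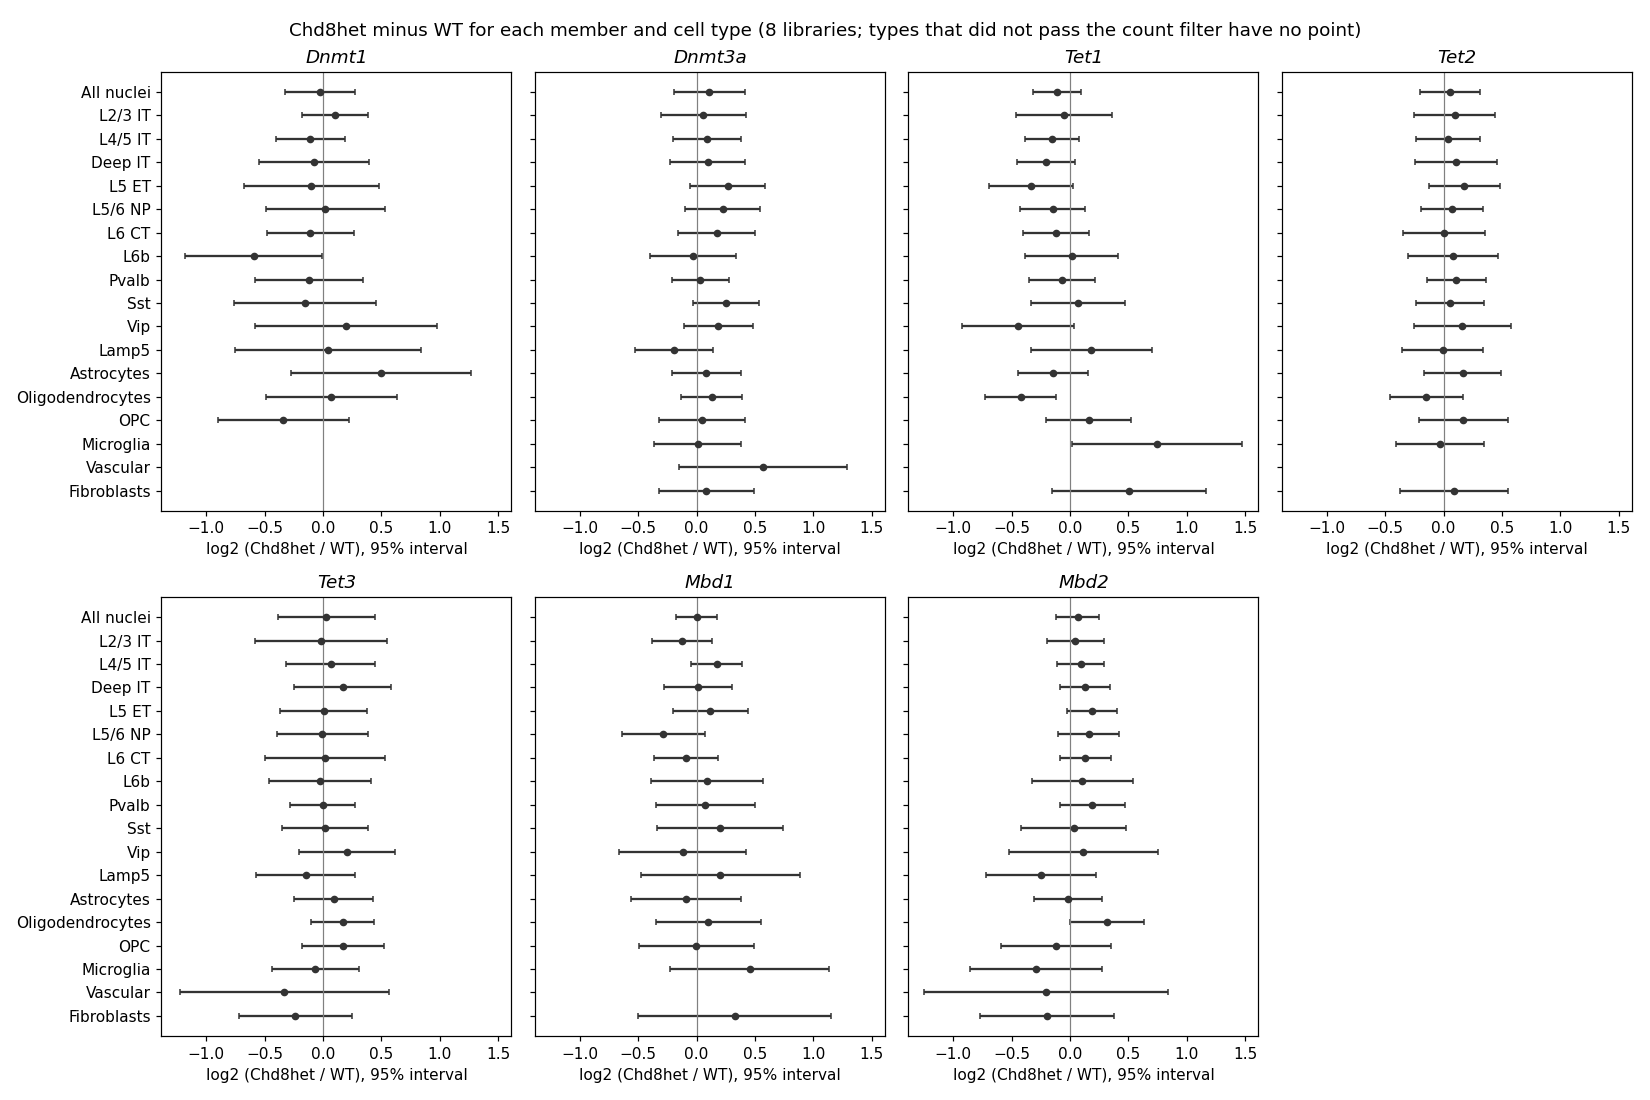
The log2 change of Chd8het against WT (x axis) with its 95% interval for each member over all kept nuclei and in each cell type (y axis); 8 libraries per estimate, no point where the count filter was not passed. Most intervals cross 0; that of Tet1 in oligodendrocytes runs from -0.73 to -0.12.

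The smallest unadjusted p among the members was that of Tet1 in oligodendrocytes, the type with its highest level. Tet1 measured 82.3, 94.97, 101 and 79.8 CPM in the WT libraries and 67.7, 68.2, 57.6 and 73.0 in the Chd8het libraries, from 84 to 150 UMIs per library. The highest Chd8het library lay below the lowest WT library, and all 4 pairs were lower in Chd8het. The log2 change was -0.42 (SE 0.14, 95% interval -0.73 to -0.12, edgeR adjusted p = 0.999), with -0.54 among single-indexed and -0.30 among dual-indexed libraries. With the pairs as a replicate block it was -0.43 (SE 0.13, edgeR adjusted p = 0.40). It ranged from -0.49 to -0.35 as each library was left out. Of 10752 genes tested in oligodendrocytes, 2.89% had an unadjusted p under 0.05 and 2.13% had groups that did not overlap. Summed excitatory markers in this gate were 271 to 398 CPM in WT and 375 to 468 in Chd8het, all 5 of them detected, and the 6 oligodendrocyte markers 17124 to 18698 and 17421 to 18721. The 5 L2/3 IT markers, of a type low in Tet1, read 168 to 181 in WT and 187 to 215 in Chd8het, without overlap. The lists without overlap given here and below are a selection from the panel's lists. Other gates held such lists too, as OPC markers in L4/5 IT (80.76 to 91.05 CPM in WT, 104 to 118 in Chd8het). How often lists lacked overlap over all gates was not counted. The part of the neuronal markers in the Tet1 difference was not tested.

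The Tet1 differences had no common sign over types. In microglia it measured 19.1, 19.4, 29.3 and 13.7 in the WT libraries and 30.1, 37.2, 43.2 and 27.0 in the Chd8het libraries, from 5 to 22 UMIs each. All 4 pairs were higher in Chd8het, the groups overlapped, and the log2 change was 0.75 (SE 0.35, 95% interval 0.015 to 1.48, edgeR adjusted p = 1.00). With the pairs as a replicate block it was 0.72 (SE 0.33, edgeR adjusted p = 0.83). In this gate, mean summed markers were higher in Chd8het for excitatory neurons (743 against 666 CPM), oligodendrocytes (667 against 569) and astrocytes (562 against 493), with overlapping ranges. The 5 Deep IT markers, 4 of them detected, read 138 to 155 in WT and 161 to 209 in Chd8het without overlap, and the 6 microglial markers 9392 to 10292 and 8651 to 9797. Their part in the Tet1 difference was not tested. Over 16 types Tet1 was higher in Chd8het in 6, with a median change of -0.09. The third test under 0.05 was Dnmt1 in L6b neurons, at 25.8, 21.5, 11.7 and 19.3 in WT and 15.3, 12.3, 16.6 and 10.0 in Chd8het, with overlap of the groups. Its change was -0.60 (SE 0.27, 95% interval -1.18 to -0.011, edgeR adjusted p = 1.00), with -0.12 between single-indexed libraries and -0.82 between those dual-indexed. The 5 markers of L6 CT, the neurons with the highest Dnmt1 level, read 2380.1 to 2628 CPM in WT and 2013 to 2379.95 in Chd8het in the L6b gate, without overlap by a narrow margin, and the 4 L6b markers 86.9 to 264 and 92.8 to 168. Their part in the Dnmt1 difference was not tested.

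Mbd2 had groups that did not overlap in 3 types, L5 ET, L5/6 NP and Pvalb, and Dnmt3a in 1, Sst. With Tet1 in oligodendrocytes these made 5 of 113 member tests, where 2.02% of all tests over types had such groups. The 4 other than Tet1 were higher in Chd8het, as were 1.05% of all tests. Mbd2 in L5 ET measured 35.8, 37.6, 35.1 and 37.2 in WT and 42.8, 43.0, 41.6 and 39.1 in Chd8het, a log2 change of 0.19 (SE 0.10, 95% interval -0.025 to 0.41, edgeR adjusted p = 1.00). All 4 Chd8het libraries stood above all WT libraries by a narrow margin. The changes in L5/6 NP (0.16, SE 0.12) and Pvalb (0.19, SE 0.13) were of like size, and in oligodendrocytes, where the groups overlapped, it was 0.32 (SE 0.15). Over 17 types Mbd2 was higher in Chd8het in 11, with a median change of 0.09 and the lowest, -0.29, in microglia. Oligodendrocytes had the highest Mbd2 level, and their 6 markers read 104 to 120 CPM in WT and 129 to 167 in Chd8het in the Pvalb gate, without overlap. They overlapped in L5/6 NP (101 to 142 against 109 to 175) and L5 ET (84.9 to 129 against 106 to 125). Their part in the Mbd2 differences was not tested.

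Dnmt3a was higher on average in Chd8het in 15 of 17 types, with a median log2 change of 0.09, and the types share the same 8 libraries. Without Chd8het male 2 it was higher in 9 of 17, with a median of 0.02. In Sst it measured 127, 169, 145 and 172 in WT and 183, 188, 176 and 185 in Chd8het, a change of 0.25 (SE 0.13, 95% interval -0.027 to 0.53, edgeR adjusted p = 0.999). WT male 1 was the lowest library, and without it the change was 0.16. The 5 excitatory markers read 171 to 222 CPM in WT and 189 to 258 in Chd8het in this gate, and their part in the difference was not tested. In L5 ET the change was 0.27 (SE 0.14), higher in 4 of 4 pairs with overlapping groups, and with the pairs as a replicate block it was 0.26 (SE 0.07, edgeR adjusted p = 0.27). Without Chd8het male 2 it was 0.14. In L6 CT the Chd8het libraries read 198, 307, 204 and 183 against 184, 206, 187 and 207 in WT, and Chd8het male 2 alone lay above every WT library. With the block, 7 of 113 member tests (6.19%) had an unadjusted p under 0.05, close to the 6.08% of all genes, and 0 members passed the adjusted threshold.

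**Figure D4:**
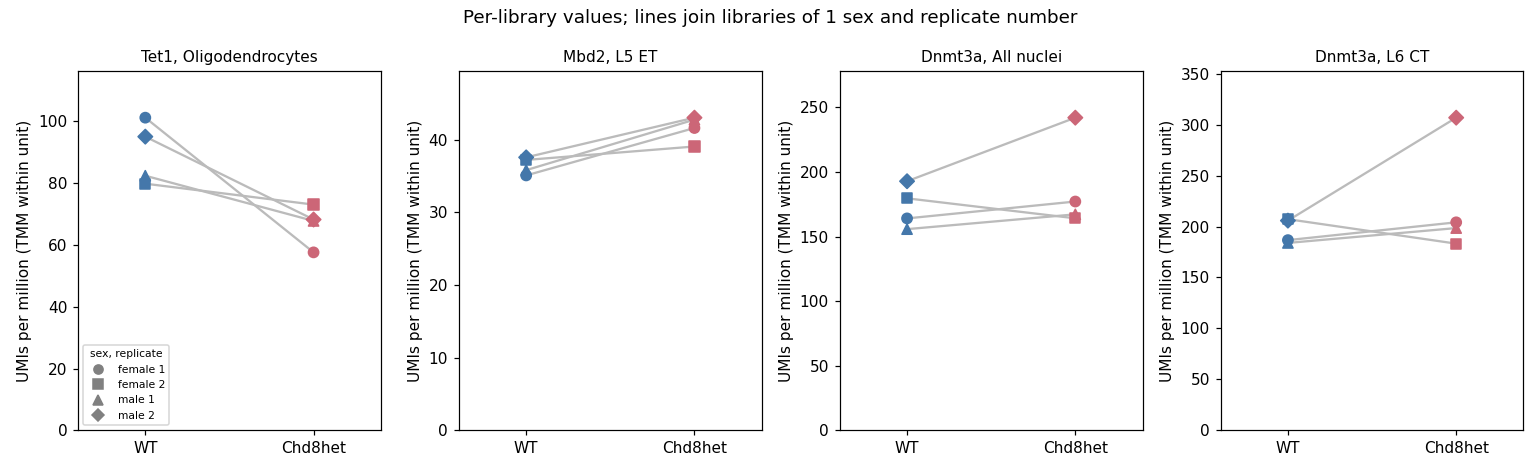
CPM (y axis, from 0, TMM within the named type or all kept nuclei) of Tet1 in oligodendrocytes, Mbd2 in L5 ET and Dnmt3a over all nuclei and in L6 CT; each point is 1 library, marker shape gives sex and replicate, and lines join the WT and Chd8het library that share sex and number. Tet1 is lower at the Chd8het end of all 4 lines; Dnmt3a in Chd8het male 2 stands at 242 over all nuclei and 307 in L6 CT, above every other library.

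No other gene of the pathway passed the test between genotypes. Of their 331 tests over types, 0 passed the adjusted p by edgeR or by DESeq2 (0.00109% of all tests by edgeR), and 6 (1.81%, against 2.47% of all tests) had an unadjusted edgeR p under 0.05, 4 of them higher in Chd8het.

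No member passed the adjusted test between females and males (0 of 113 tests by edgeR, 0 by DESeq2, where 0.0556% of all tests by edgeR did), and 5 of 113 had an unadjusted edgeR p under 0.05 (4.42%, against 4.03% of all tests). That count ran from 0 (without WT female 1, against 2.46% of all tests) to 13 (11.5%, without Chd8het male 1, against 5.09%) as each library was left out, and was 12 (10.6%, against 8.48%) with the index type added. Among those 5 were the 3 IT types for Tet3, lower in females by a log2 change of -0.60 (SE 0.25) in L2/3 IT, -0.47 (SE 0.19) in Deep IT and -0.40 (SE 0.17) in L4/5 IT, with edgeR adjusted p from 0.89 to 1.00. Without a count filter, Tet3 in Deep IT passed (-0.49, SE 0.13, edgeR adjusted p = 0.022), 1 of 119 member tests, where 0.232% of all tests passed. It was the 1 member call in the settings in which sex was a term of the fit. In L2/3 IT, Tet3 measured 100, 141, 91.3 and 155 in the males (WT male 1, WT male 2, Chd8het male 1 and Chd8het male 2) and 62.6, 102, 99.3 and 58.1 in the females in the same order. The replicate 2 males were the highest libraries and the sexes overlapped. The interaction of genotype and sex passed the adjusted edgeR p for 0 of 113 member tests (0% of all tests), and 2 (0 to 4 as each library was left out) had an unadjusted p under 0.05, against 1.42% of all tests.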

How the data were processed

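Single-nucleus RNA was measured in 8 libraries. The authors deposited raw UMI counts per gene and barcode, unit checked on the values. The submitters' processing notes name STAR 2.7.9a, STARsolo, Cell Ranger and mm10. The use of strand and introns in counting is not given in the sources used here. Members and lists were chosen with earlier results of these data known.

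Nuclei with at least 500 genes and at most 5% mitochondrial UMIs were gated by a 118-marker likelihood (margin 3). Mixed profiles were removed as classes of their own, and no doublet caller was run. A panel gene is not reported here and was left out of the printed marker sums. Counts were summed per library and type. Genotype was tested with edgeR 4.0.16 (R 4.3.3; TMM, filterByExpr, quasi-likelihood, ~ sex + genotype, two-sided, Benjamini-Hochberg within a type), and cell types with the library as a block. TMM was computed within a type for genotype and across types for levels, so the values of a library differ between them. DESeq2 1.42.0, a replicate block, other filters and gates, and leaving out each library were alternatives. The fits were also run on simulated counts drawn from the kind of model fitted, which does not check the model itself. That run covered genotype in L2/3 IT and oligodendrocytes, and OPC against oligodendrocytes, and no other comparison. Named genes were the 7 members, up to 3 called pathway genes per comparison by smallest adjusted p, and the 2 likest profiles.

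The labels' protocol states litter- and sex-matched pairs without naming their libraries. Libraries of the same sex and number deviated together (r from 0.13 to 0.60 over 72 pairs in 18 units), and the number is also the index type, so litter and index cannot be told apart. Each animal gave 1 library.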

Additional observations from a re-analysis of the deposited data

Results flagged for a closer look

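Of 133 groups of 4 or 8 libraries examined, 9 held a library whose gap to the nearest other exceeded Dixon's 95% limit for the group's range. Chance gives about 1 in 20. In 7 of the 9 the library was Chd8het male 2, which also had the lowest share of assigned nuclei (52.3%).

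Over all kept nuclei, Chd8het male 2 stood above the other Chd8het libraries for Dnmt3a, at 242 CPM against 164 to 177, and for Dnmt1, at 16.2 against 11.9 to 12.6. Among all 8 libraries it was the highest for Dnmt3a in L6 CT neurons (354 against 205 to 239), in L5/6 NP (317 against 169 to 230) and in L4/5 IT (270 against 178 to 212). It was also the highest for Tet2 in astrocytes (157 against 89.7 to 117) and for Mbd1 in microglia (50.2, from 14 UMIs, against 16.3 to 26.9).

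In the other pair of groups, Tet3 in oligodendrocytes was lowest in WT female 2, at 90.2 CPM against 117 to 139. Mbd1 in L6 CT was lowest in Chd8het female 2, at 21.4 against 25.4 to 28.9.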

How the results depend on the processing

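No member was called between genotypes under any alternative run. Counts of all genes called between genotypes over types (2) moved to 7 by DESeq2's Wald test, 162 without a count filter, 17 with the index type added and 1 to 3 as each library was left out, and over all nuclei from 0 to 3 by the Wald test. With the pairs as a replicate block 30 were called over types. The sex count (102) moved to 895 of 386567 tests without a filter, Tet3 in Deep IT among them, and 192 with the index type added, and the interaction count (0) to 62 without a filter and 0 to 4 as each library was left out. Members called moved, per nucleus, from 0 to 7 for neurons, 0 to 1 for excitatory neurons, 1 to 2 for OPC against oligodendrocytes and 7 to 37 for 1 type against the others, where 71% (higher in neurons), 13.7% (higher in excitatory neurons) and 12% (lower in OPC) of all genes, and 36.9% of all comparisons of 1 type, were called on that scale. Pathway genes called higher in neurons moved from 1 to 21 of 25. OPC against oligodendrocytes gave 2 with a stricter gate and 3 in WT libraries alone. The cause of these shifts was not tested.

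Per nucleus, directions also turned far from 0. Of the 119 comparisons of 1 type with the others, 18 passed the adjusted p on both scales with opposite signs, as Tet3 in microglia (0.91 to -0.70). As a share of UMIs, directions turned mostly near 0. Between genotypes, the ranges of Tet1 (-0.17 to -0.06) and Mbd2 (0.0097 to 0.11) over all nuclei kept 1 sign. Over all nuclei, leaving out each library gave -0.11 to 0.053 for Dnmt1, -0.028 to 0.19 for Dnmt3a, -0.014 to 0.14 for Tet2, -0.11 to 0.14 for Tet3 and -0.025 to 0.032 for Mbd1. Mbd1 was 0.0049 without a filter, 0.00074 with the replicate block and 0.00056 with the index type added. For neurons against non-neuronal types, Tet1 was 0.10 with a stricter gate and 1.36 per nucleus, Tet3 -0.019 with DESeq2 size factors, Mbd2 1.20 per nucleus, and Mbd1 0.10 in WT alone, 1.53 per nucleus and -0.025 to 0.059 as each library was left out. For excitatory against inhibitory neurons, Dnmt1 was 0.024 in WT alone, 0.28 per nucleus and -0.13 to 0.00027 as each library was left out, and Tet1 0.15 per nucleus. For OPC against oligodendrocytes, Mbd1 was -0.010 without a filter, -0.055 per nucleus and -0.11 to 0.050 as each library was left out. The replicate block changed no member's call. Depth limited Dnmt1 and Tet1 in vascular cells and microglia.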
